A study of Mus musculus with 6 samples.

Results

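Gene expression was compared between Ly6G-low T1-binding cells, called Ly6G-low cells here, and Ly6G-high T1-non-binding cells, called non-binding cells here. The libraries were chosen by their titles, 2 in each population and 4 of the 6 in the study, and all genes were included. Both populations had been sorted by flow cytometry as myeloid cells out of digested subcutaneous CT26 tumours of 1800 mm3 in BALB/C mice. CT26 is a mouse colon carcinoma line, Ly6G is a surface antigen of mouse neutrophils, and T1 is an aptamer, a folded oligonucleotide picked for its binding to a cell surface. The Ly6G-low cells were labelled a myeloid cell subset and the non-binding cells a polymorphonuclear (PMN) myeloid subset. The same 2 mice gave both populations, 1 library of each per mouse, so that replicate 1 of both came from mouse 1 and replicate 2 from mouse 2. The third population, Ly6G-high T1-binding cells, was used in alternative fits alone. The populations differ in both gates, so that Ly6G level and T1 binding cannot be told apart in what follows. The labels give no genotype, sex or age, no markers gated besides Ly6G and T1, and no purity of the sort.

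Neutrophils are short-lived granulocytes that carry Ly6G in mice, store antimicrobial proteins in granules and enter tissue through chemoattractant receptors. Monocytes and macrophages share with them the integrin CD11b (Itgam), the leukocyte antigen CD45 (Ptprc) and the lineage factor PU.1 (Spi1), and use the growth factor receptor encoded by Csf1r. In tumours, myeloid cells that restrain T cells have been described among neutrophils and among monocytes. CT26 cells are a carcinoma with many mesenchymal features, and tumours also hold fibroblasts, endothelial cells and lymphocytes, each with genes of its own. Every library is RNA from many cells, so fewer cells of a type and less RNA per cell cannot be told apart.

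Counts in genes totalled 23595976 and 24956983 in Ly6G-low cells and 23673055 and 28045025 in non-binding cells (mouse 1, then mouse 2). A count of 0 allowed at most 0.107 to 0.127 CPM, reads of a gene scaled to a fixed library total, by counting error only. This limit uses library totals alone. CPM values below are also divided by TMM factors, described in the next paragraph. These were 1.36 and 1.37 in Ly6G-low cells and 0.640 and 0.838 in non-binding cells. On that scale the limit is lower in Ly6G-low cells and higher in non-binding cells. The correlation of log2 CPM across genes, which are not independent replicates, was 0.986 between the mice in Ly6G-low cells and 0.976 in non-binding cells, and 0.829 to 0.901 between libraries of different populations. The mice of a group differed beyond counting noise (17.9 in Ly6G-low cells and 69.1 in non-binding cells as chi-square over its degrees of freedom), and each library was kept as a separate sample. The 50 most abundant genes held 15.2% and 14.7% of the counts in Ly6G-low cells, against 29.5% and 25.1% in non-binding cells.

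Of 13602 genes tested, 4808 were called at an adjusted p below 0.05 (35.3%), 1445 higher in Ly6G-low cells (10.6%) and 3363 lower (24.7%). The tests were edgeR's quasi-likelihood F test, adjusted over all genes tested, and CPM values are scaled by TMM factors, which assume that most genes do not differ, and not by gene length. The direction of the calls rested on that scaling. With library totals and no factors, 7117 genes were called higher (52.3%) and 1804 lower (13.3%), and the median log2 fold change of all tested genes was 0.93 in place of 0.05. With upper-quartile factors that median was 0.30, and 3710 genes were higher and 2938 lower. Set against the median of all genes under the same scaling, the medians of the 48 gene lists described here moved by at most 0.14 between scalings, and none of the 48 changed sign. A change of scaling shifts all genes by nearly the same amount. Subtracting the median removes that shift, so this stability is no check of the scaling. Without Ly6G-low replicate 1, 212 genes were called higher and 2243 lower, and without Ly6G-low replicate 2, 430 and 2758. Without non-binding replicate 1 there were 875 higher and 2527 lower, and without non-binding replicate 2, 3404 and 3811. These fits leave 1 library in a group, which is assumed to vary like the other group. Where a list is given with the numbers of calls left, they are in that order, without replicate 1 and 2 of Ly6G-low cells and then 1 and 2 of non-binding cells. For all genes they were 200, 373, 789 and 1373 of the 1445 higher calls and 2144, 2537, 2466 and 3107 of the 3363 lower calls.

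Between the groups, 41.7% of all genes had both Ly6G-low libraries above both non-binding libraries and 39.3% had both below. All 1445 higher calls and all 3363 lower calls were among these genes. Where groups are said below not to overlap in a called gene, this therefore adds nothing to the call. Under TMM scaling the differences were unequal in size in the 2 directions. All sizes in this paragraph use that scaling, and with library totals the median of all tested genes was 0.93 in place of 0.05. Among 8986 genes that reached 10 CPM in the population where they were higher, 318 were more than 2-fold higher in Ly6G-low cells, and the highest log2 fold change was 1.49. In the other direction 2056 of these genes were more than 2-fold lower, 1050 had a log2 fold change below -2, 283 below -4 and 86 below -6. The 1249 of these genes that were called higher had a median of 0.87, with the middle 50% between 0.75 and 1.00. The 2508 called lower had a median of -1.71, with the middle 50% between -2.78 and -1.13. Tested against a 2-fold change in place of no change, 1743 genes were lower (12.8%) and 2 higher (0.0147%). This test was run with TMM factors alone, so the few higher genes hold for that scaling only. The 2, both at few counts and named after their values had been seen, were Adamts12, a matrix-degrading protease, at 1.71 and 1.50 CPM in the Ly6G-low group, against 0.198 and 0.298 CPM in the non-binding group, and Zfp518b, a zinc finger protein, at 4.07 and 3.79 CPM in the Ly6G-low group, against 0.991 and 1.06 CPM in the non-binding group.

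**Figure D1:**
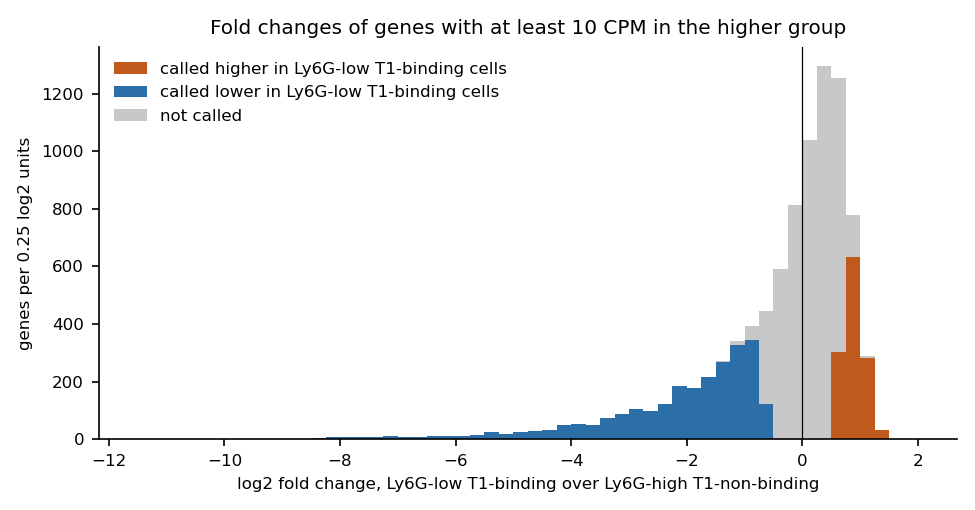
Number of genes per 0.25 log2 units of fold change, Ly6G-low over non-binding cells, among the 8986 genes that reached 10 CPM in their higher population, coloured by the edgeR call. The higher calls end at 1.49, while the lower calls reach -11.16. That lowest value is Amer2, which had no read in Ly6G-low cells, so its size is not measured beyond at least 239.5-fold lower. The 0 of the axis is set by TMM scaling, and with library totals the median of all tested genes lies at 0.93.

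Ly6g, the gene of the sorting antigen (ENSMUSG00000022582, chr15:75155240-75159126, GRCm38 in GENCODE M21) was at 0.186 and 0.0293 CPM in the Ly6G-low group, against 33.4 and 33.1 CPM in the non-binding group. Both Ly6G-low libraries lay below both non-binding libraries, the direction of the Ly6G gate (log2 fold change -8.23 ± 0.45 SE, adjusted p = 4.2e-05). Ly6G-low libraries held 6 and 1 reads of Ly6g. The gene of the granulocyte growth factor receptor, Csf3r (chr4:126024550-126044440), was at 20.7 and 18.0 CPM in the Ly6G-low group, against 3238 and 1898 CPM in the non-binding group. Both Ly6G-low libraries held some of it, far below both non-binding libraries (log2 fold change -7.05 ± 0.46 SE, adjusted p = 5.5e-05). 

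All 29 neutrophil identity genes tested, of 30 listed, were lower in Ly6G-low cells, with a median of -7.31 on the log2 scale, against 0.05 for all genes tested. Within mouse 1 the median was -6.17 and within mouse 2 it was -5.99 (log2 of CPM plus 0.5). The untested member, Csta1, had no count in Ly6G-low cells. All 29 calls remained without each library in turn. Summed over the 30 genes, the list was at 900 and 594 CPM in the Ly6G-low group against 71565 and 45540 CPM in non-binding cells, 78.4-fold lower. S100a9 (chr3:90692632-90695721) and S100a8 (chr3:90668978-90670035) encode the subunits of calprotectin, a cytosolic alarmin of neutrophils. S100a9 was at 118 and 29.0 CPM in the Ly6G-low group, against 21019.7 and 15337 CPM in the non-binding group, and S100a8 at 72.1 and 19.9 CPM in the Ly6G-low group, against 11909 and 8426 CPM in the non-binding group. Within Ly6G-low cells mouse 1 was above mouse 2 in both genes, and the groups were far from overlapping (log2 fold change -7.95 ± 0.84 SE, adjusted p = 0.000311 for S100a9). Trem1, a receptor that amplifies inflammatory signals, was at 93.4 and 63.4 CPM in the Ly6G-low group, against 6780.2 and 3110.5 CPM in the non-binding group, and Hdc, the histamine-making enzyme, at 27.3 and 8.33 CPM in the Ly6G-low group, against 4266 and 2519 CPM in the non-binding group. 

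Neutrophil genes were also among the 12 lowest fold changes, taken over called genes that reached 10 CPM and whose groups did not overlap. Cxcr2 (chr1:74153989-74161246), the receptor for neutrophil-attracting CXC chemokines, was at 4.29 and 2.00 CPM in the Ly6G-low group, against 1076 and 613 CPM in the non-binding group (log2 fold change -8.07 ± 0.55 SE, adjusted p = 6.1e-05). Chil1, a secreted chitinase-like protein, was at 0.995 and 0.205 CPM in the Ly6G-low group, against 227 and 133 CPM in the non-binding group, and Olfm4, a protein of specific granules, at 0.901 and 0.264 CPM in the Ly6G-low group, against 285 and 152 CPM in the non-binding group. Ltf, the iron-binding granule protein lactoferrin, was at 0.528 and 0.117 CPM in the Ly6G-low group, against 90.8 and 151 CPM in the non-binding group. In Cxcr2, Chil1, Olfm4 and Ltf, as in every gene called lower, both Ly6G-low libraries were below both non-binding libraries. Camp, the antimicrobial peptide cathelicidin, had 2 reads over both Ly6G-low libraries and 774 over both non-binding ones, a ratio of 664 (95% counting interval 183 to 5490). Bmx, a TEC-family kinase, had 2 and 373 reads (ratio 319.8, counting interval 87.9 to 2651). Amer2, which binds the tumour suppressor APC, had no read in Ly6G-low cells and 419 in non-binding cells, at least 239.5-fold lower with 3 reads over the group as the limit. Mrgpra2a and Mrgpra2b, 2 receptors of near-identical sequence, were at means of 0.106 and 0.527 CPM in the Ly6G-low group against 37.0 and 165 CPM in non-binding cells, and reads could be split between them. The same holds for the protease inhibitor Stfa2 and its copies, at 0.280 and 0.0293 CPM in the Ly6G-low group, against 71.8 and 31.4 CPM in the non-binding group. Ankrd22, an ankyrin repeat protein, had no read in mouse 2 of the Ly6G-low cells and was at 0.155 and 0.00 CPM in the Ly6G-low group, against 55.0 and 24.1 CPM in the non-binding group. 

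The granule and precursor list, which shares members with the neutrophil list, was lower in all 13 genes tested of 16 (median log2 fold change -4.13), and 12, 12, 11 and 12 of the 13 calls remained. Elane, Mpo and Ctsg, the azurophil granule enzymes of early precursors, were too low to be tested, and Elane had no read in Ly6G-low cells. Lcn2, an iron-sequestering granule protein, was at 13.1 and 10.7 CPM in the Ly6G-low group, against 464 and 387 CPM in the non-binding group, and Adam8, a membrane protease, at 203 and 221 CPM in the Ly6G-low group, against 2941 and 1945 CPM in the non-binding group. Of 16 chemoattractant receptors tested, 14 were lower and none higher (median log2 fold change -3.78), and 11, 14, 11 and 14 of the calls remained. Ccr1 (chr9:123962124-123968692), a receptor for CC chemokines, was at 157 and 154 CPM in the Ly6G-low group, against 6495 and 3211 CPM in the non-binding group. C5ar1, the receptor for complement fragment C5a, was at 92.4 and 116 CPM in the Ly6G-low group, against 2379 and 1302 CPM in the non-binding group, and the formyl peptide receptor Fpr1 at 6.09 and 3.61 CPM in the Ly6G-low group, against 598 and 349 CPM in the non-binding group. All of them were lower in both Ly6G-low libraries. Ccr2, the monocyte recruitment receptor, was lower by less (log2 fold change -1.68), and Cx3cr1 and Ackr3 were not called (log2 fold changes -0.71 and 0.18). 

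The promoter of S100a9 is shown because it is the neutrophil gene with the highest CPM whose only window held the letters TTGCNNAA, a core bound by C/EBP factors, which regulate granulocyte genes. Windows run from 250 bases before to 50 bases after a gene's start (RefSeq, GRCm38.p6), and both strands were searched. The letters were in 8 of 27 windows of the neutrophil list (29.6%), against 10.8% of all 32851 windows. The window of S100a9 is chr3:90695672-90695971 on the minus strand, printed 5′ to 3′ with the match in capitals. A match, here and in the promoters that follow, describes the letters and not a bound site.
S100a9: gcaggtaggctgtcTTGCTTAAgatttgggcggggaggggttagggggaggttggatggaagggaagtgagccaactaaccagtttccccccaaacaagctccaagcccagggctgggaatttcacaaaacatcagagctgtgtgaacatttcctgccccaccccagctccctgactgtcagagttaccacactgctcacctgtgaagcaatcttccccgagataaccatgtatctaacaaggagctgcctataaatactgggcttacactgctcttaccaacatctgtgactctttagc

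Surface receptors of myeloid cells were lower nearly throughout. Of 32 receptors, 30 were lower and none higher (median log2 fold change -2.95), with 28, 30, 24 and 25 of the calls left when libraries were omitted. Trem1 is a member of this list too. Clec4e, a lectin that senses mycobacterial glycolipid, was at 73.4 and 66.5 CPM in the Ly6G-low group, against 3149.6 and 1669 CPM in the non-binding group. Lilrb4, an inhibitory receptor, was at 171 and 186 CPM in the Ly6G-low group, against 4000.2 and 2240.2 CPM in the non-binding group. Both were lower in each Ly6G-low library than in either non-binding library. Cd14, the co-receptor for bacterial lipopolysaccharide, was at 717 and 915 CPM in the Ly6G-low group, against 18960.4 and 12710.3 CPM in the non-binding group (log2 fold change -4.28 ± 0.47 SE, adjusted p = 0.000365). Its partner Tlr4 was 17.2-fold lower, Tlr2 5.98-fold lower and Tlr13 16.6-fold lower, and Tlr9 was not called (log2 fold change -1.54). Cd300lf, an inhibitory receptor, was at 31.9 and 34.4 CPM in the Ly6G-low group, against 1995 and 1157 CPM in the non-binding group, and Tyrobp, the adaptor that many of these receptors use, was 9.67-fold lower. 

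The letters GAGGAAG, a form of the core bound by ETS factors such as PU.1, were in 14 of 28 windows of this list (50%), against 13.6% of all windows. Cd300lf, the called receptor with the highest CPM whose only window held them, is shown with its window at chr11:115133943-115134242 (minus strand) and the matches on both strands in capitals.
Cd300lf: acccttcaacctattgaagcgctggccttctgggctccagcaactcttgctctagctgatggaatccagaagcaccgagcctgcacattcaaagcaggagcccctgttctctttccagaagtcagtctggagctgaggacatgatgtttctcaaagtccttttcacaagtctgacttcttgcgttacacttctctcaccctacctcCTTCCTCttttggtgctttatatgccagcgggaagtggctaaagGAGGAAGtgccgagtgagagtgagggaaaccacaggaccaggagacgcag

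General leukocyte genes were also lower. Of 24 tested members of a pan-leukocyte list, 23 were called lower and none higher (median log2 fold change -2.85, with 20, 22, 22 and 22 calls left). Their summed level was 1846 and 2558 CPM in the Ly6G-low group against 22444 and 13948 CPM in non-binding cells, 8.26-fold lower, with Arhgap30 at 0 in both. Ptprc (chr1:138062861-138175708) was at 67.3 and 117 CPM in the Ly6G-low group, against 1659 and 945 CPM in the non-binding group, and Itgam (chr7:128062640-128118491) at 217 and 361 CPM in the Ly6G-low group, against 2172 and 1219.9 CPM in the non-binding group. Spi1 (chr2:91082390-91115756) was at 33.0 and 49.9 CPM in the Ly6G-low group, against 423 and 306 CPM in the non-binding group (log2 fold change -3.14 ± 0.31 SE, adjusted p = 0.000229). Itgam and Spi1 are not in the list, and each of the 3 genes was detected in both Ly6G-low libraries and was lower there than in both non-binding libraries. Laptm5, a lysosomal protein of leukocytes, was at 278 and 445 CPM in the Ly6G-low group, against 2146 and 1499 CPM in the non-binding group. Cells labelled myeloid thus held defining leukocyte genes at lower levels than the non-binding cells, and the purity of the sort was not tested. Ptpn22, a phosphatase of lymphocytes and myeloid cells, was not called (log2 fold change 0.40). With all 6 libraries 1 member of the list was called higher, and with library totals also 1. 

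**Figure D2:**
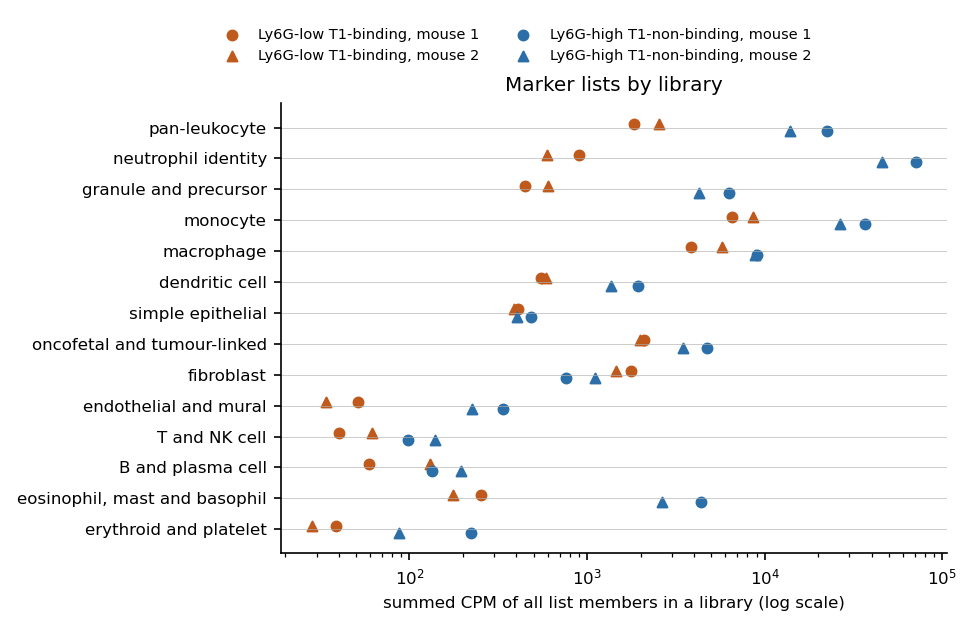
Summed CPM of every listed member in each library, on a log axis, for the marker lists of cell types; circles are mouse 1, triangles mouse 2, Ly6G-low cells in orange and non-binding cells in blue. The neutrophil sum is 900 and 594 CPM in the Ly6G-low group against 71565 and 45540 CPM in non-binding cells, the macrophage sum 3825 and 5733 CPM in the Ly6G-low group against 9056 and 8855 CPM in non-binding cells, and the fibroblast sum 1768 and 1459 CPM in the Ly6G-low group against 764 and 1103 CPM in non-binding cells.

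Monocyte and macrophage genes were lower by less than neutrophil genes. Of 20 monocyte genes, 16 were lower and none higher (median log2 fold change -1.76, with 11, 14, 12 and 15 calls left). Lyz2 (chr10:117277331-117282321), the myeloid lysozyme, was at 2722 and 4387 CPM in the Ly6G-low group, against 9533 and 8578 CPM in the non-binding group, and Ly6c2, an antigen of inflammatory monocytes, at 13.8 and 26.1 CPM in the Ly6G-low group, against 114 and 125 CPM in the non-binding group. Ly6c2 shares close sequence with Ly6c1, so its reads could be split. Fn1, Spn, F13a1 and Cx3cr1 were not called. Of 30 macrophage genes, 13 were lower, none higher and 17 not called (median log2 fold change -0.88, and -1.32 and -0.62 in mouse 1 and 2). With mouse as a block 19 of the 30 were called lower and none higher. As libraries were left out, 1, 10, 4 and 7 of the 13 calls remained, and with library totals 2 were called lower and 3 higher (median log2 fold change -0.01 beside 0.93 for all genes). The macrophage sum was 1.87-fold lower in Ly6G-low cells, at 3825 and 5733 CPM, against 9056 and 8855 CPM in non-binding cells. 

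Within the macrophage list the members differed. Cd68, an endosomal glycoprotein, was at 135 and 203 CPM in the Ly6G-low group, against 883 and 649 CPM in the non-binding group, and Csf1r at 227 and 443 CPM in the Ly6G-low group, against 1011 and 817 CPM in the non-binding group. Both were lower in both Ly6G-low libraries (log2 fold change -1.45 ± 0.37 SE, adjusted p = 0.0190 for Csf1r). Emr1 (now Adgre1, which encodes F4/80) was at 54.5 and 132 CPM in the Ly6G-low group, against 185 and 201 CPM in the non-binding group, and was not called (log2 fold change -1.05 ± 0.38 SE, adjusted p = 0.0586). Within Ly6G-low cells, mouse 2 was above mouse 1 in Emr1, Csf1r and Cd68. Apoe, C1qa, C1qb and C1qc, products of resident macrophages, had log2 fold changes of -1.05, -0.75, -0.86 and -0.85, none called. Mrc1, Folr2, Cd163, Lyve1 and Mertk had log2 fold changes between -0.57 and -0.19, also not called. Tmem119 and Gpnmb had log2 fold changes of 0.66 and 0.45, not called. 

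Of 24 myeloid transcription factors, 21 were lower and none higher (median log2 fold change -2.08, with 16, 20, 17 and 20 calls left). Cebpb, which drives emergency granulopoiesis, was at 168 and 203 CPM in the Ly6G-low group, against 3670.3 and 2408 CPM in the non-binding group, and Id2 at 156 and 176 CPM in the Ly6G-low group, against 1088 and 647 CPM in the non-binding group. Klf4, a factor of monocytes and of epithelia, was not called (log2 fold change 0.17). All 7 phagocyte oxidase genes, which make superoxide, were lower (median log2 fold change -2.06, with 4, 6, 5 and 7 calls left), among them Cyba at 173 and 189 CPM in the Ly6G-low group, against 531 and 426 CPM in the non-binding group. Of 15 Fc and complement receptor genes, 13 were lower (median log2 fold change -2.77), and 10, 13, 10 and 13 of the calls remained. Fcgr3, the low-affinity receptor for IgG, was at 139 and 207 CPM in the Ly6G-low group, against 1881 and 1132 CPM in the non-binding group. 

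Genes of antigen presentation through MHC class II were lower as well, 13 of 14 with none higher (median log2 fold change -1.69, 7, 12, 10 and 11 calls left). Cd74, the invariant chain, was at 744 and 1421 CPM in the Ly6G-low group, against 3560.3 and 3586 CPM in the non-binding group, and H2-Eb1 at 100.2 and 194 CPM in the Ly6G-low group, against 537 and 552 CPM in the non-binding group. Within Ly6G-low cells mouse 2 was above mouse 1 in both genes, and the groups did not overlap. Class I genes showed 5 of 17 lower and none higher (median log2 fold change -0.61, and 0.26 with library totals, where 4 were called higher and 1 lower), with 1, 2, 4 and 5 calls left, a share close to the 24.7% of all genes called lower. H2-T23, a non-classical class I gene, was at 70.3 and 99.7 CPM in the Ly6G-low group, against 361 and 357 CPM in the non-binding group, and Tap1, the peptide transporter, at 61.8 and 86.1 CPM in the Ly6G-low group, against 134 and 151 CPM in the non-binding group. Reads of H2 genes can be split among close copies. B2m was not called (log2 fold change -0.59). Of 19 dendritic cell genes tested (of 20), 10 were lower and 2 higher (median log2 fold change -1.36), with 7, 9, 7 and 7 lower calls and 0, 0, 2 and 2 higher calls left. Ly75 and Fscn1 were the higher members (log2 fold changes 0.79 and 0.85), and Cd24a was the one lower by most, at 17.6 and 10.8 CPM in the Ly6G-low group, against 1268 and 652 CPM in the non-binding group. 

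Genes of the interleukin-1 system were lower. Il1b (chr2:129364570-129371139), which encodes interleukin-1 beta, was at 657 and 664 CPM in the Ly6G-low group, against 20305 and 10732 CPM in the non-binding group. Il1rn, its receptor antagonist, was at 308 and 311 CPM in the Ly6G-low group, against 9883 and 5905 CPM in the non-binding group, and the decoy receptor Il1r2 at 56.7 and 42.4 CPM in the Ly6G-low group, against 4927 and 2727 CPM in the non-binding group. Antagonist, decoy and cytokine were all lower in both Ly6G-low libraries. In the list of 18 inflammasome and interleukin-1 genes, 14 were lower, 1 was higher and 3 were not called (median log2 fold change -2.19, with 14, 14, 12 and 14 lower calls left). The 1 higher was Il1r1, the signalling receptor, at 41.0 and 40.7 CPM in the Ly6G-low group, against 19.3 and 22.2 CPM in the non-binding group (log2 fold change 0.97 ± 0.20 SE, adjusted p = 0.00728), with 0, 1, 1 and 1 calls left. Casp1 and Aim2 were not called (log2 fold changes 0.01 and -0.31). 

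Cytokine and chemokine lists had the same direction. Of 20 inflammatory cytokines tested, 14 were lower and none higher (median log2 fold change -1.84, with 11, 12, 13 and 12 calls left), while 3 were called higher with mouse as a block. Osm, a cytokine of the interleukin-6 family, was at 163 and 193 CPM in the Ly6G-low group, against 3417 and 1873 CPM in the non-binding group. Csf1, the macrophage growth factor, was lower by less (log2 fold change -1.17 ± 0.28 SE, adjusted p = 0.0152), and Csf2 and Il11 had positive values that were not called (log2 fold changes 0.93 and 0.77). Of 14 CC chemokines tested, 11 were lower (median log2 fold change -1.47, with 6, 8, 10 and 11 calls left), led by Ccl3 at 102 and 92.0 CPM in the Ly6G-low group, against 6723 and 3229 CPM in the non-binding group and Ccl4 at 94.3 and 93.1 CPM in the Ly6G-low group, against 4791 and 2608 CPM in the non-binding group. Ccl2, Ccl7 and Ccl12, which attract monocytes, had log2 fold changes of -0.88, -0.77 and -0.80. Of 14 CXC chemokines, 10 were lower (median log2 fold change -1.46, with 6, 9, 7 and 7 calls left); Cxcl2, a ligand of Cxcr2, was at 368 and 359 CPM in the Ly6G-low group, against 13168 and 6690.2 CPM in the non-binding group, and Cxcl1, another, was not called (log2 fold change -0.77). No member of the last 2 lists was called higher. With mouse as a block 10 of the 14 CC chemokines and 12 of the 14 CXC chemokines were called lower. 

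Immediate-early genes, which respond within minutes to stimulation, were lower in 16 of 18 (median log2 fold change -2.59, with 15, 16, 15 and 16 calls left). Dusp1, a phosphatase, was at 409 and 451 CPM in the Ly6G-low group, against 10064 and 5147 CPM in the non-binding group, and Egr1, a zinc finger factor, at 775 and 818 CPM in the Ly6G-low group, against 7528 and 3260.5 CPM in the non-binding group. Fos was 6.42-fold and Junb 6.02-fold lower, while Fosb and Fosl1 were not called (log2 fold changes -0.05 and 0.28). Of 14 heat shock chaperones 3 were lower and 1 higher (median log2 fold change 0.15, with 2, 2, 3 and 3 lower and 0, 0, 1 and 1 higher calls left), shares no higher than those of all genes. Hspa1a and Hspa1b, near-identical neighbours whose reads could be shared, were lower, with log2 fold changes of -4.24 and -3.32, and Hspe1, a mitochondrial chaperonin, was higher (log2 fold change 0.82). Dnajb1 was called lower (log2 fold change -0.91), and its value was 0.0050 with library totals. 

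Interferon-stimulated genes were lower in 26 of 28 members, with none higher (median log2 fold change -1.70, with 20, 24, 25 and 26 calls left). Rsad2 (chr12:26442746-26456452), an antiviral enzyme, was at 29.2 and 39.4 CPM in the Ly6G-low group, against 1304 and 854 CPM in the non-binding group (log2 fold change -4.97 ± 0.38 SE, adjusted p = 8.3e-05). Isg15 (chr4:156199424-156200818), a ubiquitin-like modifier, was at 27.2 and 28.6 CPM in the Ly6G-low group, against 749.6 and 642 CPM in the non-binding group. Irf7, a factor of the interferon response, was at 79.7 and 93.7 CPM in the Ly6G-low group, against 583 and 502 CPM in the non-binding group. In all 3 the groups were apart by more than the spread between the mice. Gbp3 and Bst2 were not called (log2 fold changes -0.37 and 0.12). The letters GAAA, any 2 bases and GAAA again, the core of an interferon-stimulated response element, were in 13 of 24 windows of the list (54.2%) and in 3.44% of all windows. The 2 called genes with the highest CPM whose only window held a match are shown. They are Rsad2 at chr12:26456403-26456702 and Isg15 at chr4:156200769-156201068, both on the minus strand, with matches in capitals. In Isg15 the capitals are 3 overlapping matches, and in Rsad2 1 match on the opposite strand. 
Rsad2: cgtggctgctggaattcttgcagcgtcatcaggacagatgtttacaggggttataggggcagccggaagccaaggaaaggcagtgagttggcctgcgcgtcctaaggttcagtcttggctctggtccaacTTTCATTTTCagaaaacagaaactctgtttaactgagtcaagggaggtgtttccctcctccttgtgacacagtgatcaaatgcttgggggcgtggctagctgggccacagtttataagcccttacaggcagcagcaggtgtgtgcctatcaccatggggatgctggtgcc
Isg15: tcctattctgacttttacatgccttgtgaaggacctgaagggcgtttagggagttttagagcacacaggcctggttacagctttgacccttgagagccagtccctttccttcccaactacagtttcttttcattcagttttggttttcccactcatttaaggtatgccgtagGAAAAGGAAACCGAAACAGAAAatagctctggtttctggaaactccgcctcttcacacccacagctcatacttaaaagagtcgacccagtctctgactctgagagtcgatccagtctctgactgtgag

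Of 29 genes tied to suppression of T cells by myeloid cells that were tested (of 30), 25 were lower, 2 higher and 2 not called (median log2 fold change -2.28, with 20, 22, 24 and 25 lower and 0, 0, 1 and 2 higher calls left). Arg1 and Arg2, the arginases, were 2.80-fold and 18.6-fold lower, and Cd274, which encodes PD-L1, was 21.7-fold lower. Nos2 was 5.36-fold lower and Entpd1, an ATP-degrading ectoenzyme, 34.7-fold lower. Ptgs2, the inducible prostaglandin synthase, was at 982 and 1063 CPM in the Ly6G-low group, against 5135 and 2180.2 CPM in the non-binding group. Ptgs1, the constitutive enzyme of the same step, was at 229 and 188 CPM in the Ly6G-low group, against 109 and 139 CPM in the non-binding group, and Ptges, a prostaglandin E synthase, at 194 and 174 CPM in the Ly6G-low group, against 84.0 and 121 CPM in the non-binding group. Both were called higher (log2 fold change 0.84 ± 0.25 SE, adjusted p = 0.0317 for Ptges), and both calls were lost without either Ly6G-low library. The call of Ptgs1 was also lost without non-binding replicate 1 and with mouse as a block (adjusted p = 0.0645 with the replicate block). S100a8, S100a9 and Tgfb1 are counted in this list and in others. 

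Iron and lipid handling genes fell in 16 of 20 (median log2 fold change -1.86, with 12, 14, 16 and 16 calls left). Fth1 and Ftl1, the ferritin chains, were at 4130.4 and 4090.5 CPM in the Ly6G-low group, against 48608 and 30350.3 CPM in the non-binding group, and at 3796 and 3419 CPM in the Ly6G-low group, against 21391 and 14078 CPM in the non-binding group. Plin2, a coat protein of lipid droplets, was at 226 and 227 CPM in the Ly6G-low group, against 2333 and 1209.6 CPM in the non-binding group. In the glycolysis and hypoxia list 14 of 28 were lower and 4 higher (median log2 fold change -1.05, with 10, 10, 12 and 14 lower and 0, 3, 1 and 4 higher calls left). The glucose transporter Slc2a3 was 152-fold lower, and the lactate exporter Slc16a3 was at 109.7 and 92.0 CPM in the Ly6G-low group, against 3731 and 2069 CPM in the non-binding group. Slc16a1, another transporter of lactate, was at 323 and 310.4 CPM in the Ly6G-low group, against 139 and 194 CPM in the non-binding group, and the carbonic anhydrase Car9 at 52.0 and 31.1 CPM in the Ly6G-low group, against 14.5 and 20.8 CPM in the non-binding group; both were higher. Ldha, Eno1, Pgk1 and Gapdh were not called (log2 fold changes from -0.80 to -0.18). 

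Proteases and adhesion genes split by member. Of 22 metalloproteinase and inhibitor genes, 8 were lower and Timp1 was higher (median log2 fold change -0.62, and 0.30 with library totals), with 7, 7, 7 and 8 lower and 0, 0, 0 and 1 higher calls left. With mouse as a block 3 of the 22 were called higher. Plaur, the urokinase receptor, was at 599 and 594 CPM in the Ly6G-low group, against 9858 and 5872 CPM in the non-binding group. Of 22 integrin and adhesion genes, 9 were lower and 5 higher (median log2 fold change -0.18, and 0.73 with library totals and 0.08 with upper-quartile factors), with 8, 9, 7 and 8 lower and 1, 1, 3 and 5 higher calls left. With mouse as a block 3 were called higher. Among the lower members Itgb2, the common chain of leukocyte integrins, was at 114 and 138 CPM in the Ly6G-low group, against 991 and 519 CPM in the non-binding group. The higher members held laminin receptors: Itga6 was at 193 and 212 CPM in the Ly6G-low group, against 85.4 and 119 CPM in the non-binding group, and its partner Itgb4 was higher too (log2 fold change 1.06). Vcam1, an adhesion ligand for leukocytes, was at 287 and 308 CPM in the Ly6G-low group, against 140.3 and 199 CPM in the non-binding group. For the Wnt pathway list, which follows, both shares called were near or below those of all genes (10.6% higher and 24.7% lower). Of 15 Wnt pathway genes tested (of 21), 2 were higher and 2 lower (median log2 fold change 0.48, with 0, 0, 1 and 1 higher and 0, 1, 1 and 2 lower calls left); Wnt10a, a ligand, was at 167 and 156 CPM in the Ly6G-low group, against 56.9 and 99.9 CPM in the non-binding group, and Ctnnb1, beta-catenin, at 251 and 254 CPM in the Ly6G-low group, against 662 and 424 CPM in the non-binding group. 

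Lysosomal and scavenger genes differed in extent. Of 28 lysosomal genes 22 were lower and none higher (median log2 fold change -1.16, with 7, 8, 20 and 21 calls left), and with library totals 5 were lower and 2 higher. Ctsd, a lysosomal protease, was at 896 and 962 CPM in the Ly6G-low group, against 5308 and 3145 CPM in the non-binding group, and Lamp2, a membrane protein, was lower (log2 fold change -2.01). Ctsl was not called (log2 fold change 0.23). Of 22 scavenger receptor genes 9 were lower and 2 higher (median log2 fold change -0.50, and 0.42 with library totals), with 5, 7, 6 and 8 lower and 0, 0, 1 and 2 higher calls left. With mouse as a block 5 were called higher. Clec7a, the beta-glucan receptor dectin-1, was at 66.0 and 74.5 CPM in the Ly6G-low group, against 2166 and 1292 CPM in the non-binding group, and both Ly6G-low libraries were below both non-binding libraries. The receptor kinase Tyro3 (log2 fold change 0.99) and the collagen receptor Mrc2 (log2 fold change 0.83) were the higher members, and Axl, a kinase related to Tyro3, missed the threshold (log2 fold change 0.90 ± 0.31 SE, adjusted p = 0.0516). 

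Cell division genes formed the largest share of higher calls in any list of 20 or more members. Of 30 mitosis and spindle genes, 24 were higher and none lower (median log2 fold change 0.84, 1.14 in mouse 1 and 0.54 in mouse 2), with 2, 3, 22 and 24 of the 24 calls left. Top2a (chr11:98992943-99024189), which untangles DNA, was at 168 and 178 CPM in the Ly6G-low group, against 77.7 and 104 CPM in the non-binding group (log2 fold change 0.93 ± 0.23 SE, adjusted p = 0.0166). Mki67 (chr7:135689784-135716361), the Ki-67 antigen of cycling cells, was at 52.5 and 56.5 CPM in the Ly6G-low group, against 25.8 and 36.8 CPM in the non-binding group. Racgap1, which acts in cytokinesis, was at 257 and 224 CPM in the Ly6G-low group, against 103 and 158 CPM in the non-binding group. In all 3 both Ly6G-low libraries lay above both non-binding libraries, and the non-binding library of mouse 1 was the lowest. Aspm and Cenpf, of the spindle pole and kinetochore, were among the 12 highest fold changes over called genes that reached 10 CPM and whose groups did not overlap (log2 1.36 and 1.40). Hmgb2, a chromatin protein, was not called (log2 fold change -0.71). The letters TTTGAA, a core of the CHR element of late cell cycle promoters, were in 19 of 25 windows (76%) against 17.9% of all windows, and CCAAT, which is often found near it, in 21 of 25 (84%) against 37.4%. Racgap1 at chr15:99651607-99651906 and Top2a at chr11:99024140-99024439 (minus strand) are shown with both motifs in capitals. They are the called members with the highest CPM whose only window held both. 
Racgap1: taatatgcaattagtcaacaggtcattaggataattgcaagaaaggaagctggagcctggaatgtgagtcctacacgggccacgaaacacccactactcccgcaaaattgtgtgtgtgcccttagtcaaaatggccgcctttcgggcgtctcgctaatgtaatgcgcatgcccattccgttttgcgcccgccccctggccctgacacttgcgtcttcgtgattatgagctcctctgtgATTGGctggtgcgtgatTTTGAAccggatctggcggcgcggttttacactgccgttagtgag
Top2a: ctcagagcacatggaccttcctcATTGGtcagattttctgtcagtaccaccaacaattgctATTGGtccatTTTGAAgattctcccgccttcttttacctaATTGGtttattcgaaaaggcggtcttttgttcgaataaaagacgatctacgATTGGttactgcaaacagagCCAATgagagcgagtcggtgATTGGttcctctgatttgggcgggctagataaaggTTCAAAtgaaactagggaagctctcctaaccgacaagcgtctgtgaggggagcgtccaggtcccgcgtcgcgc

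DNA replication genes were higher in 11 of 30 and lower in none (median log2 fold change 0.70, with 2, 2, 9 and 11 calls left), and with mouse as a block 17 of the 30 were called higher. Mcm6 was at 258 and 256 CPM in the Ly6G-low group, against 109.9 and 173 CPM in the non-binding group, and Mcm7 at 229.9 and 223 CPM in the Ly6G-low group, against 92.0 and 156 CPM in the non-binding group; both are subunits of the replicative helicase. Rrm2, which makes deoxynucleotides, was at 184 and 179 CPM in the Ly6G-low group, against 85.6 and 127 CPM in the non-binding group. Pola1, the DNA polymerase that starts strands, had the highest value of the list (log2 fold change 1.14), and Pcna was not called (log2 fold change 0.08). The letters GCGGGAA, a form of the E2F site, were in 12 of 28 windows of this list (42.9%) and in 4.6% of all windows. Mcm3 at chr1:20820263-20820562 and Pola1 at chrX:93632106-93632405 (minus strand) are shown, with matches in capitals. They are the 2 called members with the highest CPM whose only window held a match. 
Mcm3: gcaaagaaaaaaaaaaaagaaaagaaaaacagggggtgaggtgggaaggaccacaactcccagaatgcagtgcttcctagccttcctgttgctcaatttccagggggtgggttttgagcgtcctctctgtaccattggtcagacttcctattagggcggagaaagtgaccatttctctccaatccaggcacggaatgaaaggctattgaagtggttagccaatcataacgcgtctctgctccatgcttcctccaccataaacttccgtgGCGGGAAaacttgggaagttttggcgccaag
Pola1: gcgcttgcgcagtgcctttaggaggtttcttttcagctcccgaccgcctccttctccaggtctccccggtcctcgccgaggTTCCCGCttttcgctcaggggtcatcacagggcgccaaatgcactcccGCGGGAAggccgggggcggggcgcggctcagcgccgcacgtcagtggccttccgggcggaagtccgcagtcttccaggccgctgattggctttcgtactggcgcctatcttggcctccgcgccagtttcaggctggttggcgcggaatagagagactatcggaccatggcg

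Brakes on the cell cycle ran the other way in part. Of 20 inhibitors and G1 genes tested, 10 were lower and 1 higher (median log2 fold change -0.52, and 0.38 with library totals, where 9 were called higher and 6 lower), with 7, 7, 9 and 10 lower and 0, 0, 1 and 1 higher calls left. Btg2 and Cdkn1a, both induced by p53, were at 46.6 and 51.6 CPM in the Ly6G-low group, against 3104 and 1192 CPM in the non-binding group, and at 406 and 401 CPM in the Ly6G-low group, against 3256 and 1780.3 CPM in the non-binding group. Ccnd1, a G1 cyclin, was higher at 268 and 283 CPM in the Ly6G-low group, against 97.2 and 167 CPM in the non-binding group. Ribosome biogenesis genes were higher in 10 of 26 and lower in none (median log2 fold change 0.68, with 2, 0, 6 and 10 calls left), among them Nop58 at 194 and 175 CPM in the Ly6G-low group, against 82.2 and 116 CPM in the non-binding group, and Dkc1 at 110.0 and 105 CPM in the Ly6G-low group, against 45.6 and 71.8 CPM in the non-binding group. Of 26 nuclear-encoded respiratory chain genes, 1 was higher and none lower (median log2 fold change 0.24, against 0.05 for all genes tested), with 0, 0, 1 and 1 calls left and 0 with mouse as a block. That count rested on the scaling: with library totals all 26 were called higher, where 52.3% of all genes were, and the list's median was 1.10 against 0.93 for all genes. Of 11 mitochondrially encoded genes tested, 3 were higher (median log2 fold change 0.77, with 0, 1, 1 and 2 calls left). Lars2, a mitochondrial leucyl-tRNA synthetase, was lower at 558 and 650.3 CPM in the Ly6G-low group, against 17479 and 16102 CPM in the non-binding group. 

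Matrix genes were the other group with many higher calls. Of 26 matricellular and basement membrane genes tested, 14 were higher and 4 lower (median log2 fold change 0.93, 1.17 in mouse 1 and 0.59 in mouse 2), with 4, 6, 10 and 14 higher and 3, 3, 3 and 4 lower calls left. Fbln2, a fibulin, was at 383 and 366 CPM in the Ly6G-low group, against 145 and 213 CPM in the non-binding group, and Serpinh1, a collagen chaperone, at 350.3 and 296 CPM in the Ly6G-low group, against 124 and 196 CPM in the non-binding group. Sparc, a collagen-binding glycoprotein, was at 420.2 and 311 CPM in the Ly6G-low group, against 136 and 236 CPM in the non-binding group. In these 3 both Ly6G-low libraries were above both non-binding libraries. Perlecan (Hspg2) and the laminin chains Lama5, Lamb1 and Lamc1 were higher, with log2 fold changes of 1.38, 1.27, 1.10 and 1.05. Thbs1, Vcan, Tagln and Lamb3 were the 4 lower members, with Thbs1 at 415 and 545 CPM in the Ly6G-low group, against 5038 and 3037 CPM in the non-binding group. Spp1, osteopontin, was at 10202 and 7851 CPM in the Ly6G-low group, against 9628 and 8026 CPM in the non-binding group, and was not called. Summed over the list, levels were 13605 and 11171 CPM in the Ly6G-low group, against 15931 and 12839 CPM in the non-binding group. The sum thus ran in the opposite direction to the median. In non-binding cells Spp1 and Thbs1 were its largest terms. 

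Fibroblast and collagen genes had positive medians with fewer calls. Of 20 fibroblast genes 7 were higher and none lower (median log2 fold change 0.83, 1.28 in mouse 1 and 0.10 in mouse 2, with 2, 1, 5 and 7 calls left), and 1 was called lower with mouse as a block. The same block gave 9 higher calls among the 20. Col1a2 (chr6:4504814-4541544), a chain of type I collagen, was at 855 and 759.6 CPM in the Ly6G-low group, against 305 and 471 CPM in the non-binding group. Col1a1 was at 102 and 64.7 CPM in the Ly6G-low group, against 26.9 and 61.3 CPM in the non-binding group, and was not called (log2 fold change 0.91 ± 0.38 SE, adjusted p = 0.0931). Pdgfrb was at 27.3 and 28.3 CPM in the Ly6G-low group, against 15.0 and 18.1 CPM in the non-binding group, and Pdgfra was higher (log2 fold change 1.16); Fap and Thy1 were not called (log2 fold changes -0.03 and -0.72). Of 14 collagen genes tested 5 were higher and none lower (median log2 fold change 0.80, with 0, 0, 4 and 5 calls left), such as Col8a1 at 310.3 and 284 CPM in the Ly6G-low group, against 102 and 180.3 CPM in the non-binding group. Timp1, a secreted inhibitor of metalloproteinases, was at 850.4 and 635 CPM in the Ly6G-low group, against 273 and 429.5 CPM in the non-binding group, and Mmp9, a gelatinase of neutrophil granules, was lower at 100.2 and 86.2 CPM in the Ly6G-low group, against 1687 and 909.9 CPM in the non-binding group. 

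Endothelial and mural genes showed 4 of 19 lower and none higher (median log2 fold change -0.71, and 0.14 with library totals), with 3, 4, 4 and 4 calls left. That share is no higher than the 24.7% of all genes called lower. The summed level was 51.3 and 33.8 CPM in the Ly6G-low group against 337 and 225 CPM in the non-binding group. Its largest terms in non-binding cells were Acta2, a smooth muscle actin, at 4.94 and 2.44 CPM in the Ly6G-low group, against 179 and 111 CPM in the non-binding group, and Pecam1, which leukocytes also carry, at 7.30 and 7.78 CPM in the Ly6G-low group, against 107 and 57.2 CPM in the non-binding group. Of 18 T and NK cell genes tested 7 were lower (median log2 fold change -1.11, with 1, 7, 3 and 4 calls left), and of 13 B and plasma cell genes 3 (median log2 fold change -0.91, with 1, 1, 0 and 2 calls left). The 3 of 13 are likewise no more than the 24.7% of all genes. With mouse as a block 7 of the 13 were called lower, and 9 of the 18 T and NK cell genes. Cd3e was at 0.528 and 1.17 CPM in the Ly6G-low group, against 1.19 and 3.15 CPM in the non-binding group, and Cd79a at 1.21 and 5.93 CPM in the Ly6G-low group, against 3.83 and 9.45 CPM in the non-binding group, neither called. The T and NK sum was 40.3 and 61.7 CPM in the Ly6G-low group against 97.6 and 138 CPM in non-binding cells, and the B and plasma cell sum 59.0 and 131 CPM in the Ly6G-low group against 134 and 196 CPM in non-binding cells. Among erythroid and platelet genes 5 of 7 tested were lower, with 5, 5, 3 and 5 calls left. Hba-a1 and Hbb-bs, globin genes, had log2 fold changes of -2.89 and -2.45, and the alpha-globin copies can share reads. In the eosinophil, mast cell and basophil list 2 of 11 genes tested (of 15) were higher and 3 lower. The lower share is close to the 24.7% of all genes, of which 10.6% were higher. Il1rl1, the interleukin-33 receptor, was higher at 177 and 147 CPM in the Ly6G-low group, against 66.5 and 81.9 CPM in the non-binding group. Gata2, a factor of progenitors and mast cells, was higher (log2 fold change 1.01), and Hdc, Siglecf and Ccr3 were lower (list median -0.55, and 0.36 with library totals), with 0, 1, 1 and 2 higher and 3, 3, 3 and 3 lower calls left. How much cells of other types contributed to the differences was not tested. 

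Epithelial and tumour-linked genes were mixed. Of 29 simple epithelial genes 14 were abundant enough to be tested, and 4 were higher and 4 lower, with a median of 0.16 and 2, 2, 4 and 4 higher and 4, 3, 3 and 4 lower calls left; the lower share is close to the 24.7% of all genes. Krt18, a simple-epithelium keratin, was at 37.4 and 28.5 CPM in the Ly6G-low group, against 14.3 and 17.5 CPM in the non-binding group, and Krt20, an intestinal keratin, at 105 and 103 CPM in the Ly6G-low group, against 36.5 and 69.6 CPM in the non-binding group; both were higher. Krt8, the partner of Krt18, was at 87.5 and 84.3 CPM in the Ly6G-low group, against 27.2 and 64.5 CPM in the non-binding group, and was not called (log2 fold change 0.90 ± 0.36 SE, adjusted p = 0.0796). Epcam was close to 0, at 0.808 and 0.0880 CPM in the Ly6G-low group, against 1.06 and 0.766 CPM in the non-binding group, and the claudins Cldn3, Cldn4 and Cldn7 were at 0 in non-binding cells. Cldn1, a tight junction protein, was lower at 0.684 and 0.323 CPM in the Ly6G-low group, against 155 and 64.4 CPM in the non-binding group, and Cdh1 at 8.14 and 5.22 CPM in the Ly6G-low group, against 33.8 and 11.2 CPM in the non-binding group. Of 15 oncofetal and tumour-linked genes tested (of 23), 8 were higher and 2 lower (median log2 fold change 0.66, with 1, 2, 4 and 8 higher and 1, 1, 2 and 2 lower calls left). Hmga2, a chromatin protein of embryonic and tumour cells, was at 152 and 129.5 CPM in the Ly6G-low group, against 48.9 and 69.4 CPM in the non-binding group (log2 fold change 1.25 ± 0.24 SE, adjusted p = 0.00564). Msln, a mesothelial and tumour antigen, was at 216 and 212 CPM in the Ly6G-low group, against 75.1 and 132 CPM in the non-binding group, and Hmga1 at 272 and 261 CPM in the Ly6G-low group, against 138 and 184 CPM in the non-binding group. In these 3 genes both Ly6G-low libraries were above both non-binding libraries. The list's sum ran opposite to its median, at 2099 and 1980 CPM in the Ly6G-low group against 4729 and 3457 CPM in non-binding cells, with Cd44, an adhesion receptor also found on leukocytes, at 986 and 948 CPM in the Ly6G-low group, against 4202 and 2710.0 CPM in the non-binding group. Myc and Afp were higher too (log2 fold changes 0.79 and 1.19). 

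Among the 12 called higher genes with the highest CPM and groups that did not overlap were enzymes of serine and asparagine synthesis. Phgdh (chr3:98313170-98339990), the first enzyme of serine synthesis, was at 564 and 520.2 CPM in the Ly6G-low group, against 187 and 322 CPM in the non-binding group (log2 fold change 1.09 ± 0.32 SE, adjusted p = 0.0301), and Asns, asparagine synthetase, at 529 and 459 CPM in the Ly6G-low group, against 206 and 282 CPM in the non-binding group. Tm4sf1, a tetraspanin-like surface protein, was at 997 and 761 CPM in the Ly6G-low group, against 331 and 508 CPM in the non-binding group, and Cav1, which coats caveolae, at 738 and 598 CPM in the Ly6G-low group, against 286 and 371 CPM in the non-binding group. That the groups did not overlap was a condition for choosing these 4 genes. In the ATF4 and endoplasmic reticulum stress list 6 of 24 were higher (Phgdh, Asns, Psat1, Shmt2, Mthfd2 and Vldlr, named after their values were seen) and 11 lower (median log2 fold change -0.53, and 0.36 with library totals, where 11 were called higher and 9 lower), with 1, 1, 6 and 6 higher and 9, 8, 10 and 11 lower calls left. Atf3, Ddit3 and Ppp1r15a, stress-induced members, were 18.5-fold, 5.43-fold and 14.6-fold lower. Ltbp1, a matrix protein that holds TGF-beta, was at 704 and 728 CPM in the Ly6G-low group, against 256 and 376 CPM in the non-binding group, and Esm1, a secreted proteoglycan, at 473 and 446 CPM in the Ly6G-low group, against 148 and 265 CPM in the non-binding group. Ahnak and Plec, large scaffold proteins, were higher, with log2 fold changes of 0.78 and 0.88. The 12 highest fold changes of called genes that reached 10 CPM, with groups that did not overlap, included besides Aspm, Cenpf and Hspg2 also Kif20b, a mitotic kinesin (log2 fold change 1.43), Plxna2, a semaphorin receptor (log2 fold change 1.45), Tnxb, a tenascin (log2 fold change 1.38), and Ces1f, a carboxylesterase (log2 fold change 1.36). 

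**Figure D3:**
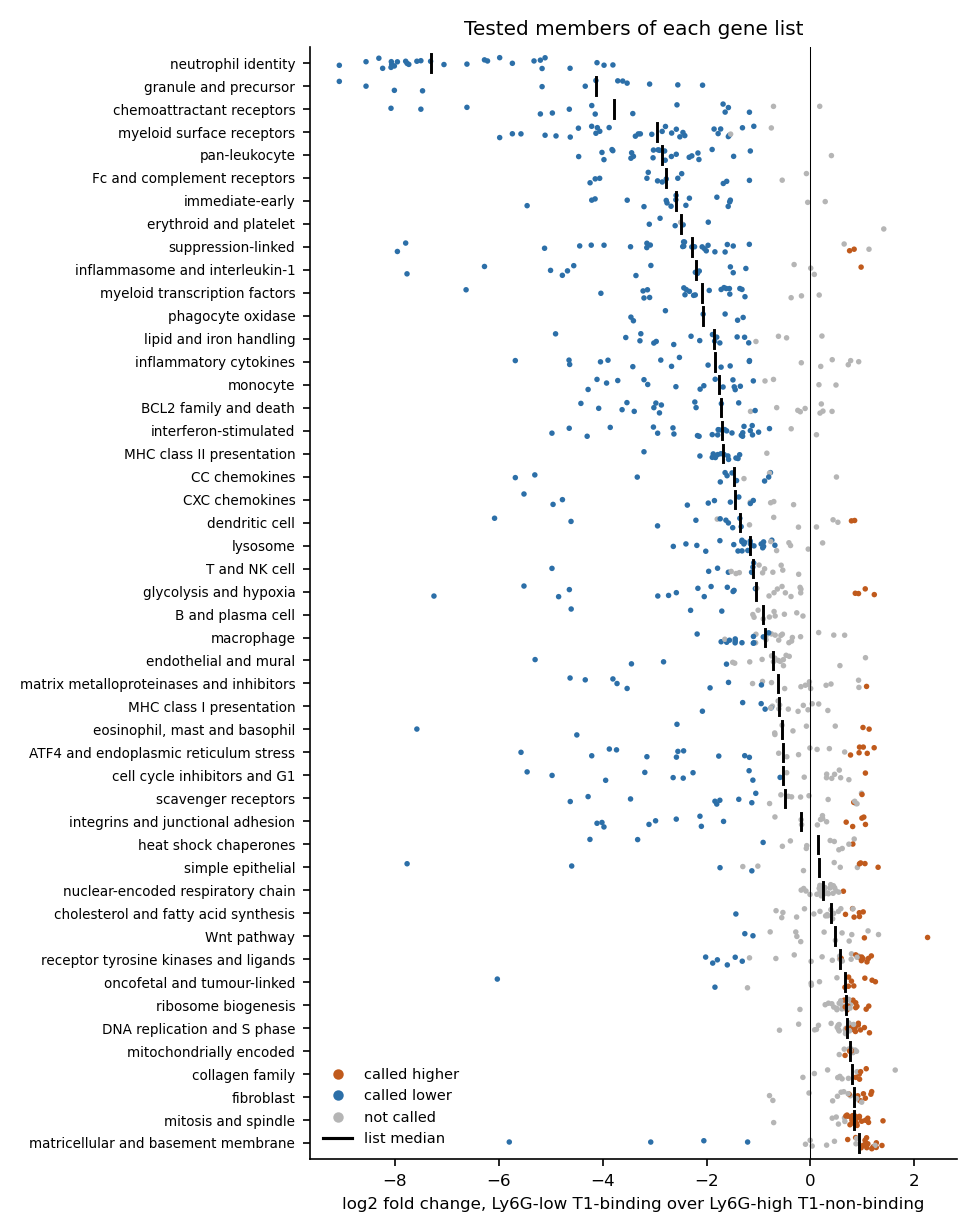
Log2 fold change of each tested member of the 48 gene lists (Ly6G-low over non-binding cells), coloured by call, with the list median as a black bar and lists ordered by median. The neutrophil list lies lowest, at -7.31, and the matricellular list highest, at 0.93; with library totals 8 of the 48 medians change sign (MHC class I, scavenger receptors, endothelial, matrix metalloproteinases, integrins, eosinophil, cell cycle inhibitors and ATF4).

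**Figure D4:**
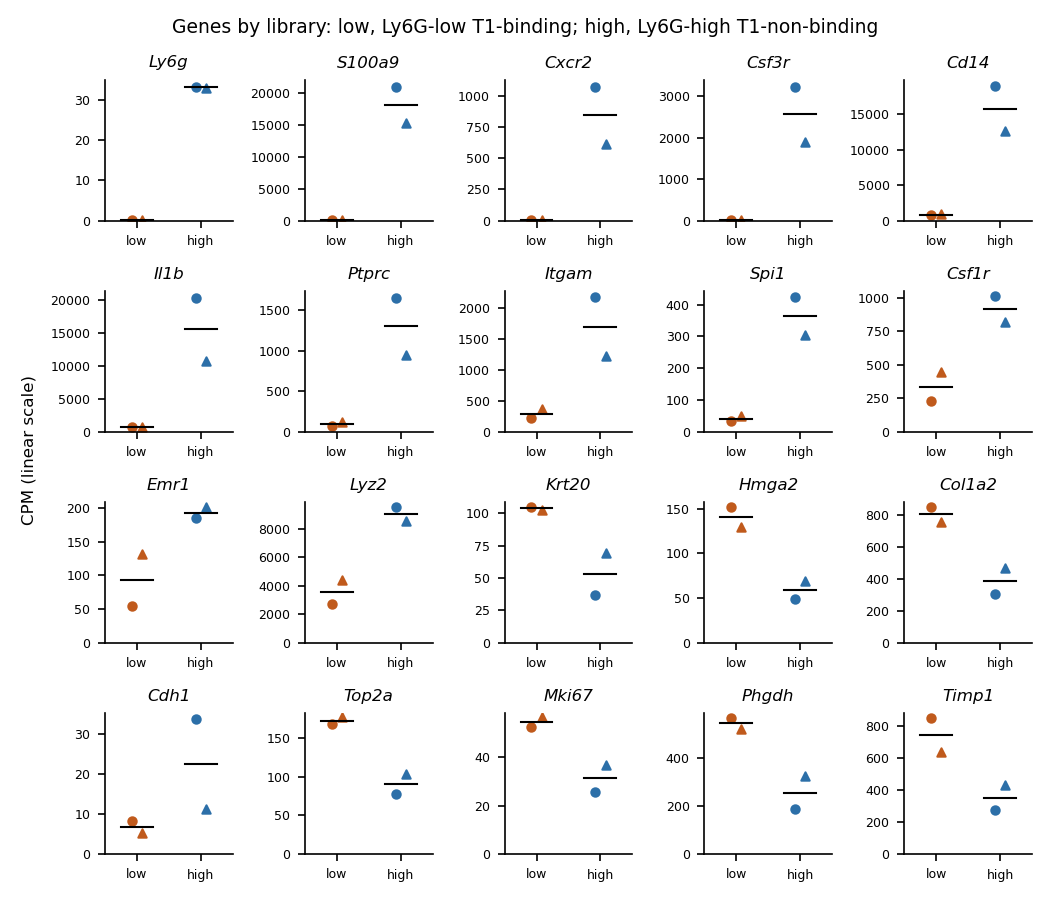
CPM of 20 genes in each library on linear axes, each starting at 0; Ly6G-low cells are at the left and non-binding cells at the right, circles are mouse 1, triangles mouse 2, and bars are means of 2 libraries. Ly6g, S100a9 and Cxcr2 lie near 0 in Ly6G-low cells, while Top2a is at 168 and 178 CPM in the Ly6G-low group against 77.7 and 104 CPM in the non-binding group.

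Differences were larger in mouse 1 than in mouse 2. Within a mouse, 97.4% of the 2508 called lower genes that reached 10 CPM were lower by more in mouse 1, and 90.5% of the 1249 called higher were higher by more in mouse 1. The medians were -2.06 and -1.27 for the lower genes and 1.10 and 0.62 for the higher genes in mouse 1 and mouse 2 (log2 of CPM plus 0.5, no test). In non-binding cells the neutrophil sum was 71565 CPM in mouse 1 and 45540 CPM in mouse 2, and the pan-leukocyte sum 22444 and 13948 CPM, while the fibroblast sum was 764 and 1103 CPM. Every gene of both called sets had the same direction in both mice, which follows from groups that do not overlap. The part of these sums in the difference between the mice was not tested.

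**Figure D5:**
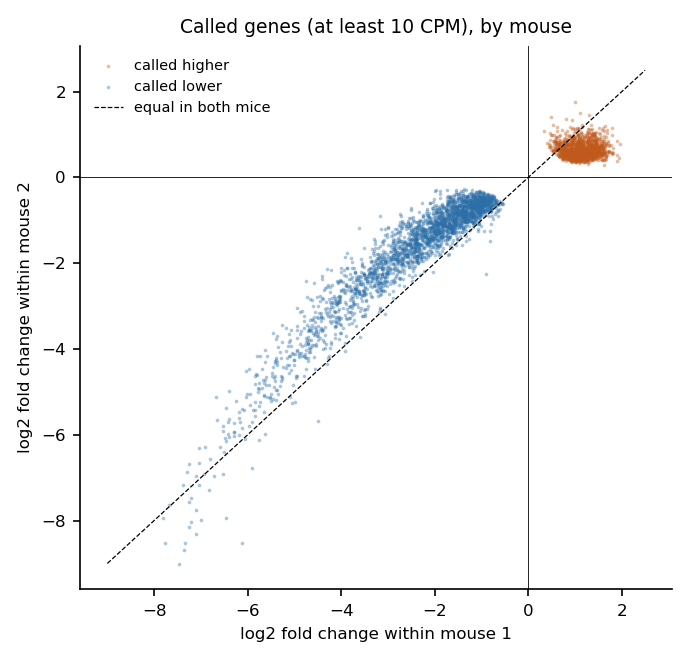
Log2 fold change (Ly6G-low over non-binding cells) within mouse 1 on the x axis and mouse 2 on the y axis, for the genes called higher (1249) or lower (2508) that reached 10 CPM; the dashed line marks equal values. Most lower calls lie above the line and most higher calls below it, so that mouse 1 has the larger differences; the 0 of both axes is set by TMM scaling.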

How the data were processed

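Bulk RNA-seq was deposited for 6 libraries, and 4 were compared. The deposited files give read counts per gene made by the authors, and FPKM values from the same counts, which the authors computed. Per the submitters' processing notes, TopHat, STAR 2.5, HTSeq 0.6.1 and the mm10 genome were named, with no role or order, and neither strandedness nor the annotation release is given in the sources used here. Reads of antisense or near-identical genes may therefore be shared. FPKM values were used only to check gene lengths. The tables hold 35275 genes under the files' own symbols, of which 27 had been turned into dates and were restored. Gene coordinates were looked up by gene ID in the GENCODE M21 annotation of the same genome build (34490 IDs matched), which may differ from the authors' annotation.

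Counts were tested with edgeR 4.0.16 (quasi-likelihood F test with robust fitting, TMM factors, filterByExpr) in R 4.3.3, with Benjamini-Hochberg adjustment over all 13602 genes tested and a threshold of 0.05. CPM used effective library sizes. The groups were taken from the labels, without a block in the main design. The labels give the mouse of each library, so libraries of 1 mouse are paired by animal; deviations of the same mouse from the group means correlated at -0.056 across genes. With 2 libraries a group the p-values rest on 2 residual degrees of freedom plus spread shared across genes.

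The gene lists and the choice of comparison were made with earlier results of these data known, and lists are described by counts and medians with no test of the list. Named genes were lineage and gate genes, the 12 highest and lowest fold changes and the 12 highest CPM in each direction, among called genes with at least 10 CPM and groups that do not overlap, and from each list the 3 called members of the more frequent direction and 2 of the other with the highest CPM. Other named members were chosen after their values were seen. Alternatives were mouse as a block, all 6 libraries, RLE and upper-quartile factors, library totals, DESeq2 1.42.0, limma-voom (limma 3.58.1), leaving out 1 library at a time, a test against a 2-fold change, no filter, and at least 50 counts in 2 libraries. The procedure was tested on simulated counts. Promoter windows came from RefSeq, and those printed were chosen among genes with a single window outside chromosome 18.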

Additional observations from a re-analysis of the deposited data

How the results depend on the processing

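The number of genes called was 4808, and 8921 with library totals, 1745 against a 2-fold change, and between 2455 and 7215 when each library was left out in turn. Genes called higher numbered 1445, and 2230 with all 6 libraries, 2842 with all 6 libraries and mouse as a block, 7117 with library totals, 3710 with upper-quartile factors, 2339 without a filter and 2 against a 2-fold change, and ranged from 212 to 3404 with each library left out. Genes called lower numbered 3363, and 1804 with library totals, 1743 against a 2-fold change, and from 2243 to 3811 with each library left out. Library totals turned the direction of Dnajb1 (0.0050) and Tapbp (0.14), as the median of all tested genes moved from 0.05 to 0.93. Pairing the libraries of each mouse as a replicate block gave 4901 calls, 1496 higher and 3405 lower. That fit left 1 residual degree of freedom. For the median gene its spread was taken wholly from that shared across genes, so its calls are not on the same footing as the main fit. Of the 209 genes chosen for naming, 12 lost their call under this block and 4 gained one, against 96 lost without Ly6G-low replicate 1, 78 without Ly6G-low replicate 2, 27 without non-binding replicate 1 and 9 without non-binding replicate 2. DESeq2 called 1329 higher and 3493 lower and limma-voom 1532 and 3406. Fits that leave 1 library in a group assume that it varies like the others. Higher calls had small fold changes under TMM scaling, and 2 libraries a group limit their precision.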

Other observations

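Of 23 BCL2 family and death genes 14 were lower in Ly6G-low cells and none higher (median log2 fold change -1.71, against 0.05 for all genes tested, with 12, 13, 13 and 14 calls left without each library in turn). Mcl1, a survival protein on which neutrophils depend, was at 403 and 448 CPM in the Ly6G-low group, against 4099 and 2277 CPM in the non-binding group. Tnfrsf1b, a receptor for tumour necrosis factor, was at 116 and 138 CPM in the Ly6G-low group, against 1905 and 1034 CPM in the non-binding group, and Bcl2l11, which encodes the death promoter BIM, at 32.2 and 38.2 CPM in the Ly6G-low group, against 568 and 300.3 CPM in the non-binding group. In these 3 genes both Ly6G-low libraries lay below both non-binding libraries. Bax and Bcl2 were not called (log2 fold changes -0.20 and 0.21), and the Bcl2a1 copies can share reads. 

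Of 23 cholesterol and fatty acid synthesis genes tested, 6 were higher and 1 was lower (median log2 fold change 0.39), with 1, 0, 4 and 6 higher calls left. Fasn, the fatty acid synthase, was at 184 and 214 CPM in the Ly6G-low group, against 86.1 and 121 CPM in the non-binding group, and Scd1, a fatty acid desaturase, at 171 and 179 CPM in the Ly6G-low group, against 70.8 and 102 CPM in the non-binding group. Both Ly6G-low libraries were above both non-binding libraries. 

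Of 28 receptor tyrosine kinase and ligand genes tested (of 32), 9 were higher and 6 lower (median log2 fold change 0.58), with 3, 6, 7 and 9 higher and 2, 4, 3 and 5 lower calls left. Over all genes 10.6% were higher and 24.7% lower, so the lower share of the list is no more than that of all genes. With library totals 18 were called higher and 1 lower, where 52.3% and 13.3% of all genes were. Ereg, an epidermal growth factor family ligand, was at 272 and 284 CPM in the Ly6G-low group, against 121 and 161 CPM in the non-binding group. Ddr2, a collagen receptor kinase, was at 152 and 154 CPM in the Ly6G-low group, against 56.5 and 84.6 CPM in the non-binding group. Both were higher in both Ly6G-low libraries. Vegfa, which drives vessel growth, was lower at 203 and 206 CPM in the Ly6G-low group, against 828 and 414 CPM in the non-binding group.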
